A study of Mus musculus with 17 samples.

Results

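The effect of CHIR99021 on cells that received no bFGF was measured in 8 of the 17 RNA-seq libraries, as 4 pairs of libraries. Each pair held mouse neural retinal progenitor cells (mNRPCs) kept in basic medium with CHIR99021 (C) and cells kept in basic medium alone (BM), taken on the same day, which was day 1, 3, 5 or 7. The cells of both groups came from the neural retina of adult C57BL/6 mice and had been grown, by the study's methods, in medium that held both bFGF and CHIR99021. The labels do not say whether the cells were kept without these factors before day 0. C against BM may therefore contrast CHIR99021 newly added with none, or CHIR99021 kept with CHIR99021 withdrawn. The basic medium of both groups was DMEM/F12 with N2, B27 and beta-mercaptoethanol. The other 9 libraries were a day 0 control and the cells with bFGF alone (B) or with both factors (BC) on the same days, and each treatment and day had a single library. A comparison of C with BM therefore rested on the 4 days as repeats, and its p-values measure the spread of the C to BM difference between days, which may be technical in part.

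CHIR99021 is a small molecule that inhibits glycogen synthase kinase 3 (GSK-3). In cells without a Wnt signal, GSK-3 sits in a destruction complex with Axin and APC and marks beta-catenin for degradation. When GSK-3 is blocked, beta-catenin can accumulate and act with TCF/LEF factors on target genes, several of which encode inhibitors of the same pathway. GSK-3 also phosphorylates glycogen synthase, Myc, cyclin D1 and NRF2, and in the retina Wnt signalling is best known for the ciliary margin, the pigment epithelium and the response of Müller glia to injury.

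The 8 libraries had total expected counts between 17843055 and 18980140, with 15505 to 15882 genes listed in each, and the 10 most abundant genes took 3.0% to 4.19% of the counts. Of the factors that mark retinal progenitors, Pax6 (42.2 to 207 FPKM), Six3 (37.1 to 62.9 FPKM) and Sox2 (47.7 to 89.9 FPKM) were present in all 8 libraries, and Lhx2 was low (0.79 to 2.35 FPKM). Rax (at most 0.07 FPKM) and Six6 (0 FPKM), which also define these cells, were at or near 0. Of the markers of Müller glia, Rlbp1 (at most 0.13 FPKM) and Slc1a3 (at most 0.05 FPKM) were near 0, whereas Glul (12.4 to 18.8 FPKM) and Vim (1229 to 2601 FPKM), which other cells use too, were expressed. Rpe65 of pigment epithelium (at most 0.09 FPKM), Ptprc of leukocytes (at most 0.04 FPKM) and Cdh5 of endothelium (at most 0.01 FPKM) were near 0 in both groups. This did not hold for every marker of such cells. An average of 1 FPKM or more was reached by 1 pigment epithelium gene, 1 microglia and leukocyte gene and 3 vascular and mural genes. In such bulk libraries, fewer cells of a type and less RNA per cell cannot be told apart.

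CHIR99021 moved many genes by a small amount. Genes were tested where their FPKM averaged 1 or more. Of these 11336 genes, 2292 (20.2%) differed between C and BM at an adjusted p under 0.05 (edgeR quasi-likelihood test with the day as a block), 1087 of them higher in C (9.59% of the genes tested) and 1205 lower (10.6%). The median size of these changes was 0.28 on the log2 scale. A change of at least 1.5-fold was found for 313 of them, 132 higher and 181 lower, and one of at least 2-fold for 81, 52 higher and 29 lower. The count was 3067 (1437 higher and 1630 lower) without the day 1 pair. It fell to 1230 (524 and 706), 1102 (426 and 676) and 987 (386 and 601) without the day 3, day 5 or day 7 pair. Counts of gene lists with 1 pair left out, given below, are to be read against these totals. Without the day in the model 0 genes passed in edgeR, with 293 at an unadjusted p under 0.05.

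A gene was counted as moving the same way when log2(FPKM + 1) was higher in C, or lower in C, on all 4 days. This held for 4401 genes (38.8% of the 11336), 2159 higher (19.0%) and 2242 lower (19.8%). Among the 2292 genes that passed the test, 2124 (92.7%) moved the same way on all 4 days, which the test itself favours. With 4 pairs, an exact permutation test that flips the signs of the pairs could not give a p below 0.125, so no single gene was tested that way. A stricter count, of genes past 1.5-fold in the same direction on every day, held 30 genes (0.265%), 5 higher (0.0441%) and 25 lower (0.221%) in C. Without the day 1 pair it held 130 genes, 62 higher and 68 lower, so the excess of lower genes depended on day 1. Without another pair it held 35 to 39 genes, 5 to 7 higher and 28 to 34 lower.

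**Figure D1:**
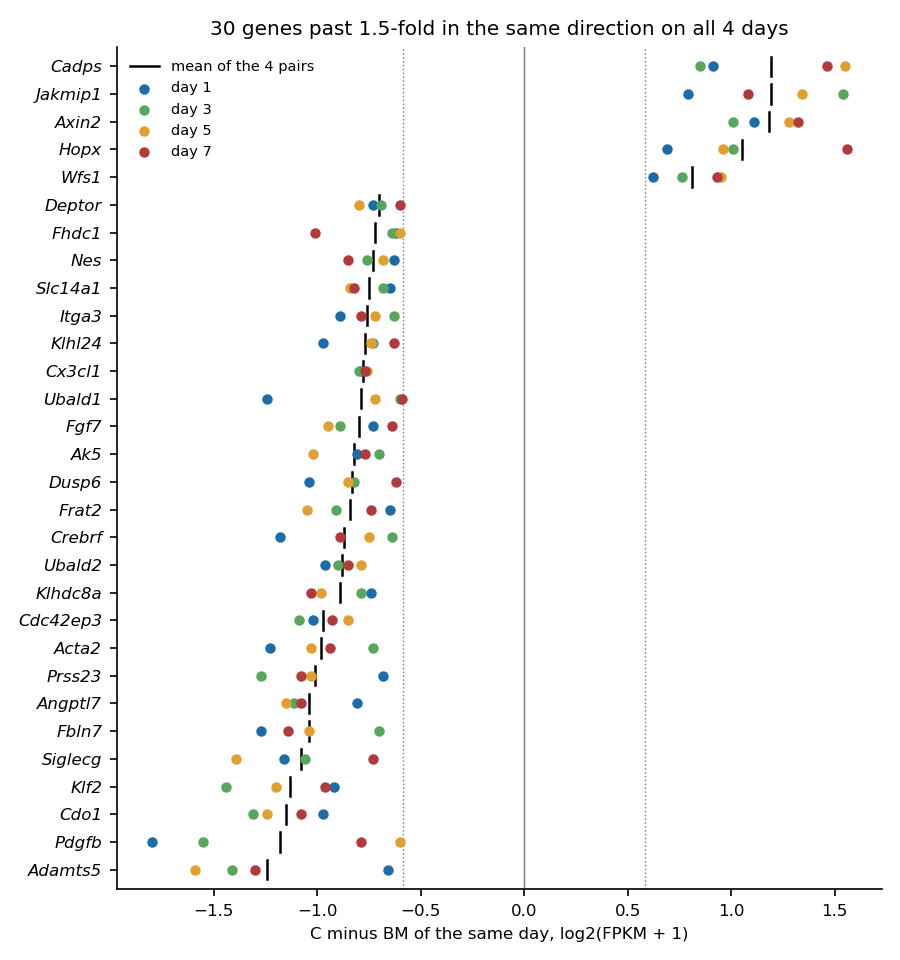
Difference between C and BM of the same day on the log2(FPKM + 1) scale (horizontal axis) for the 30 genes past 1.5-fold in the same direction on all 4 days. Points are the 4 days, black ticks their mean and dotted lines mark 1.5-fold. The 5 genes at the top were higher in C on every day and the 25 below were lower, with Adamts5 and Pdgfb the lowest by mean and Cx3cl1 the one with the least spread between days (SD 0.02).

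The 5 genes that were higher on every day were Axin2, Hopx, Wfs1, Cadps and Jakmip1. Axin2 encodes a scaffold of the destruction complex and is the feedback gene most often used to read beta-catenin activity. Its level was 5.28, 8.89, 9.56 and 7.63 FPKM in BM and 12.5, 18.9, 24.7 and 20.6 FPKM in C on days 1, 3, 5 and 7. The groups did not overlap, and Axin2 rose 2.49-fold (log2 fold change 1.31 ± 0.06 SE, adjusted p = 1.38e-05). Hopx, a homeodomain protein without DNA binding of its own, was at 3.42, 3.52, 5.52 and 3.52 FPKM in BM and at 6.12, 8.13, 11.7 and 12.3 FPKM in C. It rose 2.39-fold (adjusted p = 0.00076), and its lowest C library lay above its highest BM library.

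Wfs1, which encodes the endoplasmic reticulum protein wolframin, was at 10.6, 17.5, 28.2 and 30.5 FPKM in BM and at 16.8, 30.4, 55.5 and 59.1 FPKM in C. Both groups climbed with the day and C stood above BM on each one (log2 fold change 0.86 ± 0.06 SE, adjusted p = 6.61e-05). Cadps, a protein of dense-core vesicle release, was highest on day 1 in both groups, at 5.58 FPKM in BM and 11.4 FPKM in C, and later lay between 1.07 and 1.5 FPKM in BM and between 2.94 and 6.30 FPKM in C (3.02-fold higher, adjusted p = 0.000593). Jakmip1, which binds Janus kinases and microtubules, went from 0.83 to 8.37 FPKM in BM between days 1 and 7 and from 2.17 to 18.9 FPKM in C (2.65-fold higher, adjusted p = 2.83e-05).

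The 25 genes that were lower on every day held several regulators of signalling. Frat2, which encodes a protein that binds GSK-3, was at 4.52, 7.78, 4.23 and 3.74 FPKM in BM and at 2.52, 3.68, 1.53 and 1.84 FPKM in C (log2 fold change -1.08 ± 0.11 SE, adjusted p = 0.000429). Dusp6, a phosphatase that inactivates ERK, was at 12.2, 17.9, 6.67 and 8.01 FPKM in BM and at 5.4, 9.75, 3.26 and 4.86 FPKM in C (log2 fold change -0.94 ± 0.08 SE, adjusted p = 0.00017). All 4 C libraries lay below the lowest BM library for Frat2, whereas for Dusp6 the groups overlapped across days and C was lower within each day.

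Growth factors were among the genes that fell. Pdgfb, the platelet-derived growth factor B chain, was at 6.71, 10.8, 13.9 and 39.1 FPKM in BM and at 1.22, 3.05, 8.86 and 22.1 FPKM in C, with a log2 fold change of -1.13 ± 0.21 SE (adjusted p = 0.00582). Fgf7, the keratinocyte growth factor, went from 14.0, 13.7, 9.68 and 7.44 FPKM in BM to 8.06, 6.93, 4.54 and 4.40 FPKM in C (log2 fold change -0.90 ± 0.07 SE, adjusted p = 0.00013). Cx3cl1, the chemokine fractalkine, climbed with the day from 8.92 to 77.4 FPKM in BM and from 4.75 to 45.0 FPKM in C, and its difference was the steadiest of the 30 genes, at -0.79, -0.80, -0.76 and -0.77 on the log2(FPKM + 1) scale.

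Nes, the intermediate filament gene nestin that marks neural progenitors, was at 11.7, 12.5, 13.8 and 20.9 FPKM in BM and at 7.18, 6.94, 8.20 and 11.2 FPKM in C. All 4 C libraries lay below the lowest BM library, and Nes fell by 0.79 on the log2 scale (SE 0.05, adjusted p = 2.83e-05). Itga3, the integrin alpha 3 subunit, was the most abundant of the 25 on day 1, lay between 187 and 327 FPKM in BM and between 108 and 211 FPKM in C, and fell by 0.75 on the log2 scale (adjusted p = 0.000107). Acta2, smooth muscle actin, was at 53.6, 376, 304 and 365 FPKM in BM and at 22.3, 226, 149 and 190 FPKM in C (log2 fold change -1.0 ± 0.07 SE, adjusted p = 0.000107). Cdo1, the cysteine dioxygenase that breaks down cysteine, was at 4.89, 64.9, 47.8 and 44.6 FPKM in BM and at 2.0, 25.6, 19.6 and 20.6 FPKM in C (log2 fold change -1.24 ± 0.06 SE, adjusted p = 1.38e-05). For both genes day 1 was far below the later days, and the fall was seen within each day.

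The other 16 of the 25 were Siglecg, Klf2, Adamts5, Fbln7, Deptor, Angptl7, Fhdc1, Cdc42ep3, Prss23, Crebrf, Klhdc8a, Ubald2, Ak5, Slc14a1, Klhl24 and Ubald1. Klf2, a zinc finger transcription factor, fell by 1.40 on the log2 scale, and Deptor, an inhibitor of mTOR, fell by 1.07. Siglecg, a lectin that binds sialic acid, had the largest fall of them (log2 fold change -1.74 ± 0.19 SE), from 7.93, 3.60, 2.58 and 1.45 FPKM in BM to 3.00, 1.2, 0.37 and 0.48 FPKM in C. Just inside the 1.5-fold rule stood Ubald1, with differences between -1.24 and -0.59.

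Among the genes that passed the test, moved the same way on all 4 days and had an expected count of at least 10 in each of the 8 libraries, the 10 largest rises were Thrsp, Lrtm1, BC034090, Sbspon, Notum, Fam105a, Cadps, Synpr, Fgfr3 and Jakmip1. Thrsp, a nuclear protein of lipid synthesis that answers to thyroid hormone, was at 0.95, 0.76, 5.15 and 3.51 FPKM in BM and at 1.88, 9.47, 114 and 83.6 FPKM in C. This was the largest rise of the 10 (19.0-fold, log2 fold change 4.24 ± 0.28 SE, adjusted p = 5.26e-05), and the gap between the groups widened from day 1 to day 5. Fgfr3, a receptor for fibroblast growth factors, was below 1 FPKM in both groups on day 1 and reached 1.90 FPKM in BM and 6.27 FPKM in C on day 7 (2.69-fold higher, adjusted p = 0.000337). Synpr, the synaptic vesicle protein synaptoporin, was at 0.23, 1.16, 1.21 and 0.97 FPKM in BM and at 0.29, 3.09, 4.05 and 3.28 FPKM in C (adjusted p = 0.000536).

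The 10 largest falls were Siglecg, Ccl9, Notch3, Klf2, Scara5, Plekha7, Adamts5, Chst1, Cdo1 and 1500015O10Rik. Notch3, a receptor of the Notch family that marks mural cells in many tissues, was at 0.31, 2.16, 3.74 and 3.68 FPKM in BM and at 0.19, 1.07, 0.96 and 1.25 FPKM in C (log2 fold change -1.44 ± 0.16 SE, adjusted p = 0.000536). Scara5, a receptor that takes up ferritin, was at 8.67, 21.5, 11.8 and 7.01 FPKM in BM and at 6.00, 7.16, 2.80 and 2.52 FPKM in C (adjusted p = 0.00145). Adamts5, a protease that cleaves aggrecan, went from 15.2, 47.8, 41.2 and 28.6 FPKM in BM to 9.27, 17.3, 13.0 and 11 FPKM in C (adjusted p = 0.000252). In all 3 genes the day 1 gap was the narrowest of the 4.

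Target and feedback genes of canonical Wnt signalling moved in both directions. Of 36 genes on the list, 20 were expressed well enough to test, and 11 (55%) passed, against 20.2% of all genes, with 5 higher and 6 lower in C. The median log2 fold change of the 20 was 0.14, against 0.007 over all genes, and turned to -0.13 among the 14 with an FPKM that averaged 5 or more. The genes that rose were Axin2, Notum, Tcf7, Apcdd1 and Ptch1. The genes that fell were Dkk2, Ccnd1, Myc, Cd44, Kremen1 and Jag1. Without 1 of the 4 days, 3 to 6 of the list were called higher and 5 to 8 lower.

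Of the other 4 genes that rose, 3 have a direct part in the pathway. Notum encodes an enzyme that inactivates Wnt proteins by removing their lipid. It was at 0.99 FPKM in BM and 1.02 FPKM in C on day 1, and then at 1.12, 2.45 and 1.65 FPKM in BM and at 4.95, 9.60 and 7.32 FPKM in C (3.49-fold higher over the 4 days, adjusted p = 0.00139). Apcdd1, a membrane protein that binds Wnts and blocks them, was alike on day 1 (33.6 FPKM in BM, 33 FPKM in C) and then at 113, 89.2 and 66.5 FPKM in BM and at 165, 145 and 123 FPKM in C (adjusted p = 0.0133). Tcf7, which encodes the factor TCF-1, had its widest gap on day 1, at 9.80 FPKM in BM and 16.7 FPKM in C, and lay between 7.35 and 10.1 FPKM in BM and between 9.04 and 12.5 FPKM in C thereafter (log2 fold change 0.44 ± 0.09 SE, adjusted p = 0.00784). Ptch1, the receptor for Hedgehog proteins, rose by a smaller amount (log2 fold change 0.17 ± 0.05 SE, adjusted p = 0.0296).

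Genes of the list that drive growth were lower in C. Ccnd1, which encodes cyclin D1, was at 538, 116, 130 and 129 FPKM in BM and at 362, 79.7, 90.4 and 82.9 FPKM in C (log2 fold change -0.56 ± 0.05 SE, adjusted p = 0.00013). Myc was at 48.5, 11.7, 12.4 and 19.0 FPKM in BM and at 22.6, 8.79, 6.71 and 11.2 FPKM in C (log2 fold change -0.81 ± 0.10 SE, adjusted p = 0.000734). Dkk2, a secreted protein that acts on the Wnt co-receptors, was at 46.3, 61.8, 36.7 and 28.6 FPKM in BM and at 31.8, 27.8, 18.5 and 14.8 FPKM in C, and Jag1, a Notch ligand, at 7.02, 12.1, 23.0 and 51.6 FPKM in BM and at 5.02, 7.47, 16.1 and 33.3 FPKM in C. These 4 genes were lower in C on each of the 4 days.

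The 9 tested genes of the list that did not pass were Znrf3, Sp8, Bmp4, Zbed3, Prickle1, Id2, Runx2, Epha3 and Ephb3, with log2 fold changes between -0.17 and 0.39. Several of the usual feedback genes were at or near 0 in both groups, among them Lef1 (at most 0.15 FPKM), Lgr5 (at most 0.25 FPKM), Nkd1 (at most 0.07 FPKM), Sp5 (at most 0.05 FPKM) and Rnf43 (at most 0.01 FPKM). They stayed at these levels in C as in BM and were below the level tested. Dkk1, also below that level, was at 0.03, 0.10, 0.19 and 0.14 FPKM in BM and at 0.02, 0.28, 0.56 and 0.29 FPKM in C. A TCF/LEF motif (CTTTG followed by AA or AT or TA or TT) was sought on either strand in the 250 bases before the start site. It was held by 14.8% of 32851 RefSeq promoters of GRCm38.p6. Promoters of 1 chromosome were left out of this set, so a list gene on it counted as having none. Among the 14 tested list genes that had a promoter in this set, 1 held the motif (Sp8).

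**Figure D2:**
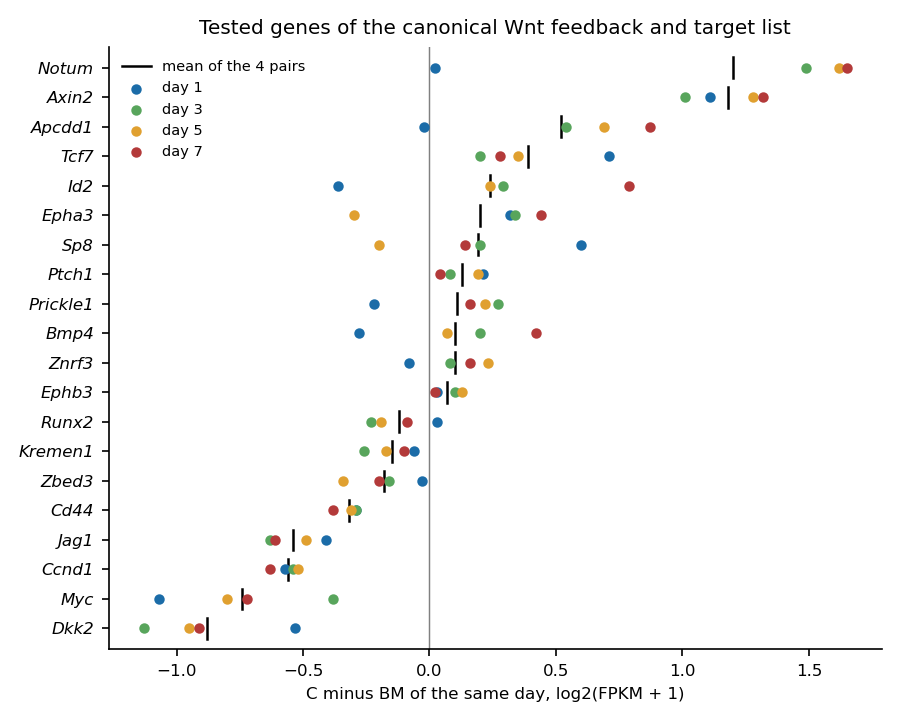
Difference between C and BM of the same day on the log2(FPKM + 1) scale (horizontal axis) for the 20 tested genes of the canonical Wnt feedback and target list. Points are the 4 days and black ticks their mean. Notum and Apcdd1 lay near 0 on day 1 and above 0 later, Axin2 lay above 1 on all 4 days, and Jag1, Ccnd1, Myc and Dkk2 lay below 0 on all 4.

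Among other parts of the Wnt machinery, of 23 tested ligands, receptors and secreted regulators, 2 rose and 2 fell (17.4%, near the 20.2% of all genes). Fzd6, a Frizzled receptor, was at 17.9, 50.1, 47.9 and 40.7 FPKM in BM and at 25.0, 70.0, 66.3 and 59.8 FPKM in C (log2 fold change 0.52 ± 0.04 SE, adjusted p = 0.00015). With 1 pair left out 1 to 4 of the 23 rose and 1 to 3 fell. Fzd3 rose by less (log2 fold change 0.28), Fzd5 fell by 0.26 on the log2 scale, and Dkk3 fell by 0.72 (adjusted p = 0.00352). Of 32 genes of the destruction complex and its nuclear effectors, none rose and 3 fell (9.38%), namely Apc2, Tcf7l1, a TCF factor that mostly represses, and Ctbp2, a co-repressor, each by 0.19 to 0.33 on the log2 scale. Gsk3a (73.8 to 104 FPKM), Gsk3b (16 to 19.3 FPKM) and Ctnnb1 (135 to 233 FPKM), the gene of beta-catenin, were expressed in all 8 libraries. None of the destruction complex genes rose in any of the 4 fits without 1 day, and 1 to 4 of them fell there.

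Of 28 tested genes of the Wnt5a/calcium pathway, which acts through phospholipase C, inositol trisphosphate receptors and calcium-dependent kinases, 3 rose (Fzd6, Plcb1 and Prkca) and 3 fell (Itpr1, Itpr3 and Camk2g), or 21.4%, close to the share of all genes. Prkca, protein kinase C alpha, was at 3.11, 3.09, 3.46 and 3.23 FPKM in BM and at 3.40, 4.84, 6.16 and 5.30 FPKM in C (log2 fold change 0.60 ± 0.10 SE, adjusted p = 0.00441). Plcb1, a phospholipase C, rose by 0.54 on the log2 scale. Wnt5a itself lay between 19.8 and 46.0 FPKM over the 8 libraries and did not pass. Leaving out 1 day changed the number that fell to between 0 and 8, and left 3 or 4 that rose.

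Genes that ERK signalling switches on, many of which encode inhibitors of it, were mostly lower in C. Of 18 tested genes of this list, 12 (66.7%, against 10.6% of all genes) fell, none rose and 6 did not pass, and the median log2 fold change was -0.36. Beside Dusp6 these were Spry1, Spry2, Spred1, Spred2, Dusp4, Dusp5, Etv4, Etv5, Egr1, Fosl1 and Phlda1. Dusp4, a nuclear ERK phosphatase, was at 24.0, 9.65, 5.41 and 7.96 FPKM in BM and at 15.6, 6.68, 3.76 and 5.25 FPKM in C (log2 fold change -0.57 ± 0.06 SE, adjusted p = 0.000514). Spry1, an inhibitor of receptor tyrosine kinase signalling, was at 1.44, 4.13, 2.71 and 4.85 FPKM in BM and at 0.94, 2.33, 1.87 and 3.18 FPKM in C (log2 fold change -0.62 ± 0.11 SE, adjusted p = 0.00465). Etv4 and Etv5, transcription factors downstream of FGF receptors, fell by 0.48 and 0.50 on the log2 scale. The day 3 pair went the other way for Dusp5 (0.06) and Fosl1 (0.26). Without the day 1, 3, 5 or 7 pair 11, 8, 8 and 5 of them fell, and 5 fell when all 16 libraries were fitted together. With bFGF 3 of the 18 fell, and the effect differed with bFGF for Dusp6 and for Spry1 (log2 difference 1.21, adjusted p = 0.0365).

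Several enzymes of glycolysis rose by small amounts. Of 30 hypoxia and glycolysis genes, all of them tested, 12 were higher in C and 3 were lower (50.0% in all, against 20.2% of all genes), 15 did not pass, and the median log2 fold change was 0.18. The genes that rose included 10 enzymes of the pathway (Hk1, Hk2, Gpi1, Pfkl, Aldoa, Tpi1, Gapdh, Pgk1, Pgam1 and Pkm), with Vegfa and Egln3, and the genes that fell were Ndrg1, P4ha2 and Mxi1. Gapdh was at 2504, 1804, 1646 and 1554 FPKM in BM and at 3029, 2661, 2363 and 2141 FPKM in C (log2 fold change 0.46 ± 0.06 SE, adjusted p = 0.0013). Hk2, hexokinase 2, was at 32.4 FPKM in BM and 29.9 FPKM in C on day 1, and then at 34.7, 42.2 and 41.5 FPKM in BM and at 49.9, 65.3 and 58.8 FPKM in C. Summed over the 30 genes, the level was 9780, 6910, 5950 and 5530 FPKM in BM and 11000, 9020, 7070 and 6670 FPKM in C. Without the day 1, 3, 5 or 7 pair the number that rose was 16, 4, 6 and 2, and 2 to 5 genes fell.

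NRF2 is the factor of the response to oxidative stress. Of 24 of its targets, 12 were higher and 2 were lower (58.3%, against 20.2% of all genes) and 10 did not pass, with a median log2 fold change of 0.11. Slc7a11, the cystine transporter, was at 7.04, 1.46, 3.30 and 2.79 FPKM in BM and at 8.95, 3.07, 8.29 and 7.07 FPKM in C (log2 fold change 1.00 ± 0.15 SE, adjusted p = 0.00252). Ftl1, the ferritin light chain, was at 5445, 2993, 2686 and 2281 FPKM in BM and at 6543, 3815, 3676 and 3475 FPKM in C (adjusted p = 0.00261). Hmox1, heme oxygenase 1, was alike on day 1 (35.3 FPKM in BM, 34.4 FPKM in C) and had its widest gap on day 3, at 25.8 FPKM in BM and 56.4 FPKM in C. Gstm1 and Abcc1 fell, and Nqo1, Gclm and Txnrd1, which are among the best known targets, did not pass. Without the day 1, 3, 5 or 7 pair 11, 6, 5 and 4 of them rose and 4, 1, 0 and 0 fell.

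**Figure D3:**
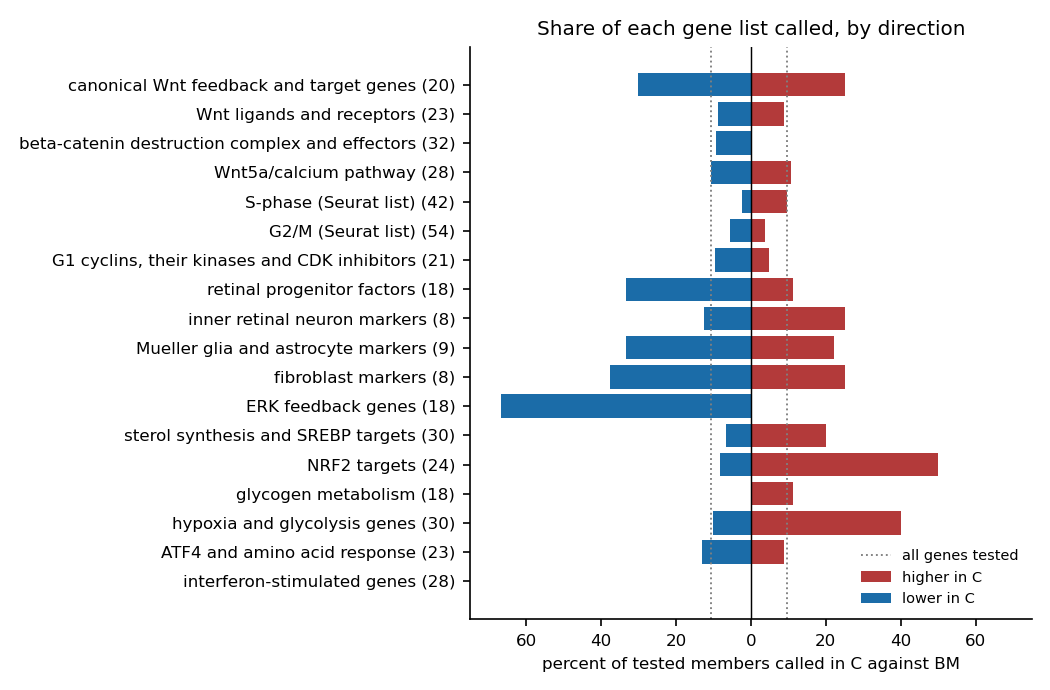
Share of the tested members of each gene list (number tested in parentheses) that passed the test of C against BM, to the right those higher in C and to the left those lower, in percent. Dotted lines mark the shares among all genes tested (9.59% higher, 10.6% lower). Lists with fewer than 8 tested genes are left out, as are those added after the values were seen (lens, contractile, YAP/TAZ and Notch). The ERK feedback list held only lower genes, the NRF2 and glycolysis lists mostly higher ones, and the interferon list none.

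Lipid synthesis was mixed. Of 30 genes of sterol synthesis and SREBP targets, 6 rose and 2 fell (26.7%, near the 20.2% of all genes). Srebf1, which encodes the factor SREBP-1, was at 37.9, 45.0, 116 and 105 FPKM in BM and at 43.8, 61.9, 181 and 174 FPKM in C (log2 fold change 0.52 ± 0.08 SE, adjusted p = 0.00275). The fatty acid genes Fasn, Scd1 and Scd2 rose by 0.39, 0.24 and 0.46 on the log2 scale, together with Dhcr7 and Sqle, whereas Mvd and Insig1 fell by 0.35 and 0.22. Of 18 tested genes of glycogen metabolism, the pathway after which GSK-3 is named, Gbe1 and Ppp1r3b rose (0.34 and 0.27) and none fell. This was 11.1%, below the 20.2% of all genes. Gys1, the muscle glycogen synthase, lay between 17.3 and 35.0 FPKM and did not pass. Without the day 1 pair 10 sterol and SREBP genes fell and without another pair at most 1, and 0 to 3 glycogen genes rose with 1 pair left out. Without the day 1 pair 1630 of all 11356 genes tested fell.

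Among cell cycle genes, 4 of 42 S-phase genes rose and 1 fell (11.9%), 2 of 54 G2/M genes rose and 3 fell (9.26%), and 1 of 21 G1 genes rose and 2 fell (14.3%), all below the 20.2% of all genes. Pcna, the sliding clamp of DNA polymerase, rose by 0.25 on the log2 scale. Cdkn1a, the CDK inhibitor p21, was at 7.29, 3.27, 1.95 and 3.27 FPKM in BM and at 8.92, 7.13, 3.96 and 4.48 FPKM in C (log2 fold change 0.68 ± 0.15 SE, adjusted p = 0.0122). The G2/M list depended on day 1. Its summed level was 2970 FPKM in BM and 3210 FPKM in C on day 1, and then 647, 772 and 757 FPKM in BM and 609, 648 and 681 FPKM in C. Without the day 1 pair 21 of the 54 genes were lower in C and none was higher, with a median log2 fold change of -0.23 in place of -0.11. In that fit 1630 of all 11356 genes tested were lower. Of the S-phase genes, 1 or 2 rose with any 1 pair left out.

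Of 18 tested retinal progenitor factors, 2 rose and 6 fell (44.4%, against 20.2% of all genes), and their median log2 fold change was -0.04. Sox2 was at 47.7, 69.3, 76.9 and 60.4 FPKM in BM and at 62.8, 89.9, 85.5 and 70.9 FPKM in C (log2 fold change 0.30 ± 0.05 SE, adjusted p = 0.00396), and Notch1 rose by 0.31. Beside Nes, the genes that fell were the Notch target Hes1 (-0.47), the Notch ligand Dll1 (-0.36), the homeobox genes Meis1 (-0.25) and Meis2 (-0.18), and N-cadherin, Cdh2 (-0.30). Hes1 was at 10.1, 24.2, 59.4 and 62.7 FPKM in BM and at 6.67, 19.0, 40.3 and 45.0 FPKM in C (adjusted p = 0.00067). Pax6 (adjusted p = 0.165) and Six3 (adjusted p = 0.769) did not pass, with log2 fold changes of -0.11 ± 0.05 SE and -0.03 ± 0.05 SE. Without 1 day, 2 or 3 of the list rose and 4 to 8 fell.

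Lists of other cell types had few tested genes. Acta2 and Flt1 fell among 3 vascular and mural genes (66.7%, against 20.2% of all genes). The summed level of that list was 73.5, 458, 412 and 484 FPKM in BM and 36.7, 308, 245 and 300 FPKM in C, most of it Acta2. The endothelial genes Pecam1 and Cdh5 were at most 0.08 and 0.01 FPKM. Of 8 fibroblast genes, Col1a1 and Twist1 rose and Col3a1, Dcn and Pdgfra fell (62.5%, against 20.2% of all genes). Dcn, decorin, was at 0.78, 6.44, 9.61 and 8.39 FPKM in BM and at 0.59, 2.95, 4.07 and 5.29 FPKM in C (log2 fold change -0.94 ± 0.13 SE, adjusted p = 0.00159). Of 9 genes of Müller glia and astrocytes, Apoe and Aldoc rose and Clu, Dkk3 and Pdgfra fell (55.6%, against 20.2% of all genes). Among 8 genes of inner retinal neurons, Prkca and Tubb3 rose and the glycine transporter Slc6a9 fell (37.5%, against 20.2% of all genes). Tubb3, neuronal beta tubulin, was at 6.35, 1.23, 3.94 and 3.75 FPKM in BM and at 8.05, 2.33, 8.22 and 7.87 FPKM in C (adjusted p = 0.00415). The photoreceptor list had 2 tested genes, pigment epithelium 1 and microglia 1, and none of them passed. With 1 pair left out these counts moved by at most 2 genes, and no gene of the Müller glia and astrocyte list rose without the day 5 or the day 7 pair. Of 28 interferon-stimulated genes 0 passed in edgeR and 2 had an unadjusted p under 0.05, DESeq2 called 1, and 3 rose without the day 1 pair and 4 fell without the day 3 pair. Of 23 ATF4 targets 2 rose and 3 fell (21.7%, near the 20.2% of all genes), and with 1 pair left out 0 to 3 rose and 0 to 6 fell.

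Several crystallins and Bfsp2 were higher in C from day 3 or day 5 on. Their list, of crystallins and other lens fibre genes, was put together after its genes were seen among the largest rises, so its count describes them and supports nothing. Of 26 genes, 11 were tested, and 7 were higher in C (Cryba1, Cryba2, Crybb1, Crybb2, Crygs, Bfsp2 and Prox1) and none was lower. This was 63.6%, against the 9.59% of all genes that rose. The other 4 did not pass, among them Cryab, the most abundant. Crygs, gamma S crystallin, was at 1.16, 47.6, 145 and 144 FPKM in BM and at 1.32, 107, 392 and 383 FPKM in C (log2 fold change 1.35 ± 0.08 SE, adjusted p = 2.08e-05). Bfsp2, a filament protein of lens fibres, was at 0.20, 2.02, 6.92 and 8.17 FPKM in BM and at 0.07, 8.01, 34.9 and 34.5 FPKM in C (adjusted p = 0.000103). Both were low on day 1, when Bfsp2 was not higher in C, and stood higher in C from day 3 on.

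The beta crystallins were low on days 1 and 3. Crybb1 was at 0.44, 0.33, 0.66 and 1.03 FPKM in BM and at 1.11, 1.36, 4.37 and 3.44 FPKM in C. Crybb2 had 0, 3, 17 and 60 expected counts in BM and 0, 5, 254 and 588 in C. Cryba1 had 0, 0, 1 and 1 counts in BM and 0, 0, 50 and 108 in C, and Cryba2 0, 0, 1 and 2 in BM and 0, 3, 80 and 89 in C. With so few counts in BM no fold change is given for Cryba1 and Cryba2, and their rise rests on days 5 and 7. Prox1, a homeobox gene of lens fibres and of retinal interneurons, was higher on all 4 days, at 10.1, 46.2, 45.3 and 36.4 FPKM in BM and 14.0, 62.7, 57.9 and 48.1 FPKM in C. The alpha crystallin Cryaa stayed at or below 0.64 FPKM, Cryab lay between 457 and 867 FPKM without passing, and the summed level of the list ran from 545 to 1050 FPKM in BM and from 492 to 1410 FPKM in C. Whether lens-type cells in the cultures had a part in these rises was not tested.

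The regions before the start sites of the 5 crystallin genes that rose are shown because these genes moved together. Each holds the 250 bases upstream of the start, 5′ to 3′ on the gene's strand, from RefSeq on GRCm38.p6, the assembly that mm10 stands for. Capitals mark the letters TGCTGA or their reverse complement, a part of the palindrome bound by Maf factors, which 16.1% of the 32851 promoters held. Of the 9 tested lens genes that had a promoter there, 6 held them. Of the 7 lens genes that rose, 4 held them, and so did Crybb3 and Lgsn, which did not pass. The letters were therefore not particular to the genes that rose.
Cryba1 (chr11:77725294-77725543, minus strand): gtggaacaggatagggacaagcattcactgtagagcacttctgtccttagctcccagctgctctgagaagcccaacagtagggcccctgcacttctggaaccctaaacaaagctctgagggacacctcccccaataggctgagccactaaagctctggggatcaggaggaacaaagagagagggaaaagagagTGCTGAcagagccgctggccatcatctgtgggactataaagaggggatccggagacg
Cryba2 (chr1:74893144-74893393, minus strand): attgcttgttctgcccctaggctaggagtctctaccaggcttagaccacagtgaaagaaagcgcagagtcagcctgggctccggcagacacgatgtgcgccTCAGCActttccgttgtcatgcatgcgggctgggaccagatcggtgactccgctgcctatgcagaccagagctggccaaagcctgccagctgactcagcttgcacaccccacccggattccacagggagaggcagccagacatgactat
Crybb1 (chr5:112255570-112255819, plus strand): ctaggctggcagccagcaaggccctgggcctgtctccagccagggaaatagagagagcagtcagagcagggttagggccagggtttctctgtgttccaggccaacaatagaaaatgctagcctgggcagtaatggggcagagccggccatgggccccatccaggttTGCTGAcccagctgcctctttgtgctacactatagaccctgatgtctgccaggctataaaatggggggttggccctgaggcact
Crybb2 (chr5:113070118-113070367, minus strand): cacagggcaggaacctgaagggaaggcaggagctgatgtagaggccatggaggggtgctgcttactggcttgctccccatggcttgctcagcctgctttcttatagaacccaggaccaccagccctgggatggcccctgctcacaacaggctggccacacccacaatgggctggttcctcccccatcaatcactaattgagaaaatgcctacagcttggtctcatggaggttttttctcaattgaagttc
Crygs (chr16:22811411-22811660, minus strand): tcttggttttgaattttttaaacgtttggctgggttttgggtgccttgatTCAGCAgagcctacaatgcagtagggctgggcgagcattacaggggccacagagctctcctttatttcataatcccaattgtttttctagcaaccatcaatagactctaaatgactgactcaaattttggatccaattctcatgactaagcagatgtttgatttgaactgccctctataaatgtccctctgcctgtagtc
The match began 57 bases before the start of Cryba1, 149 before Cryba2, 84 before Crybb1 and 200 before Crygs, and Crybb2 had none in this window. A match is a run of letters and not a measured binding site. Maf was expressed in all 8 libraries (5.69 to 21.1 FPKM) and did not pass in edgeR (log2 fold change 0.02 ± 0.05 SE, adjusted p = 0.854). Whether Maf factors had a part in these rises was not tested.

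Other genes with fewer than 10 counts in at least 1 library followed the same course. R3hdml had 1, 0, 43 and 68 expected counts in BM and 0, 13, 373 and 581 in C, and Fam101a, which encodes refilin A, a protein that binds filamin, had 5, 56, 132 and 198 in BM and 10, 439, 1073 and 1431 in C. From day 3 on, Fam101a was at 1.90, 4.36 and 6.53 FPKM in BM and at 14.8, 35.5 and 46.7 FPKM in C (7.55-fold higher in the fit over all 4 days, adjusted p = 5.46e-06).

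**Figure D4:**
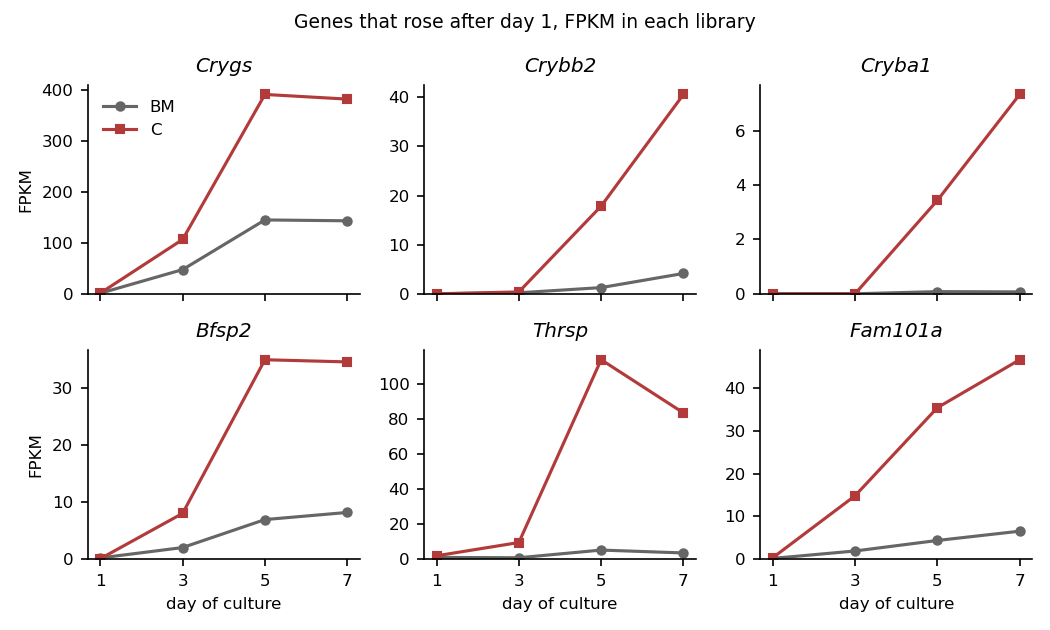
FPKM (vertical axes, scaled per gene from 0) by day of culture for 4 lens genes, Thrsp and Fam101a. Grey circles are BM and red squares C, 1 library each. The 2 groups lie together on day 1 and C stands above BM on days 5 and 7 in all 6 genes.

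Genes of the contractile cytoskeleton and targets of YAP/TAZ were mostly lower. Both lists were added after Acta2 and its like were seen to fall, so their counts are descriptive. Of 15 tested contractile genes and SRF targets, 9 fell and none rose, where 10.6% of all genes fell. Leaving out 1 pair gave 7 to 9 of this list that fell and none that rose. Tpm1, a tropomyosin, was at 1335, 1386, 1220.2 and 1465 FPKM in BM and at 807, 890, 964 and 1004 FPKM in C (log2 fold change -0.55 ± 0.07 SE, adjusted p = 0.000905). Actb, cytoplasmic actin, lay between 1194 and 1779 FPKM in BM and between 965 and 1378 FPKM in C and fell by 0.31 on the log2 scale (adjusted p = 0.00379), and Actn1, Myh9 and Vcl fell by 0.29 to 0.47 on the log2 scale.

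Of 21 tested YAP/TAZ targets, 12 fell and 2 rose (Dock5 and Fjx1), or 66.7% against 20.2% of all genes. Cyr61, a matricellular protein, was at 286, 412, 415 and 339 FPKM in BM and at 139, 309, 322 and 225 FPKM in C (log2 fold change -0.59 ± 0.10 SE, adjusted p = 0.00408). Ankrd1, a nuclear ankyrin repeat protein, was at 14.5, 11.8, 9.04 and 12.3 FPKM in BM and at 7.50, 7.17, 7.23 and 7.88 FPKM in C (adjusted p = 0.00258). F3, tissue factor, and Lats2, a kinase that inhibits YAP, fell by 0.75 and 0.48 on the log2 scale. Ctgf, another target of YAP/TAZ, did not pass (adjusted p = 0.604). Its differences on the log2(FPKM + 1) scale were -1.5, 0.2, 0.45 and -0.66 on days 1, 3, 5 and 7. With 1 pair left out 0 to 3 of the YAP/TAZ targets rose and 8 to 13 fell. Of 21 tested Notch pathway genes, likewise added later, 2 rose (Notch1 and Rfng) and 5 fell (Notch3, Dll1, Jag1, Hes1 and Rbpj), or 33.3% against 20.2% of all genes. Rbpj, the DNA-binding partner of Notch, was at 81.3, 56.9, 35.5 and 38.8 FPKM in BM and at 55.4, 40.2, 26.2 and 27.0 FPKM in C (log2 fold change -0.48 ± 0.04 SE, adjusted p = 0.000216).

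The number of genes at least 1.5-fold higher in C was 32 on day 1 and 139, 164 and 168 on days 3, 5 and 7, whereas the number at least 1.5-fold lower was 181, 198, 207 and 176. The day 1 difference was also set against that of days 3 to 7 in edgeR. This contrast was chosen after those counts were seen and day 1 is a single pair, assumed to vary like the later ones, so its calls describe these libraries and support nothing. It called 216 of 11336 genes (1.91%), 50 with a higher (0.441%) and 166 with a lower (1.46%) difference on day 1, and DESeq2 called 101. Thrsp (-3.49), BC034090 (-2.03), Notum (-1.96) and Lrtm1 (-1.84) had a lower difference on day 1 by these log2 amounts, as had Slc7a11 (-0.95) and Hk2 (-0.69). Conversely the fall of Dkk3 (-0.76), Cyr61 (-0.61) and Myl9 (-1.07), a light chain of myosin, was larger on day 1. Myl9 was at 12.3 FPKM in BM and 4.58 FPKM in C on that day, and at 117, 136 and 163 FPKM in BM and 89.4, 107 and 128 FPKM in C later. For Axin2 the log2 difference was -0.06.

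The same comparison, with against without CHIR99021, was made in cells with bFGF, as BC against B in 8 other libraries. There 549 of 10955 genes (5.01%) passed, 250 higher (2.28%) and 299 lower (2.73%), and this count was 950, 191, 48 and 9 without the day 1, 3, 5 or 7 pair. Of the 2139 genes that passed in C against BM and were tested in both, 1769 (82.7%) had the same sign in BC against B, against 62.6% of the 8622 genes that had not passed. A set of 306 genes passed in both, which is 14.3% of the genes called without bFGF and 58.1% of the 527 called with it, and 288 of them had the same sign. Of the 30 genes past 1.5-fold on all 4 days, 29 could be tested with bFGF, 26 had the same sign and 17 of these passed. Axin2 was at 3.98, 4.47, 1.98 and 1.31 FPKM in B and at 5.63, 9.51, 3.40 and 2.33 FPKM in BC (log2 fold change 0.80 ± 0.12 SE, adjusted p = 0.00836). Hopx, Cadps, Siglecg, Frat2, Deptor, Nes and Itga3 also passed with bFGF in the same direction.

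**Figure D5:**
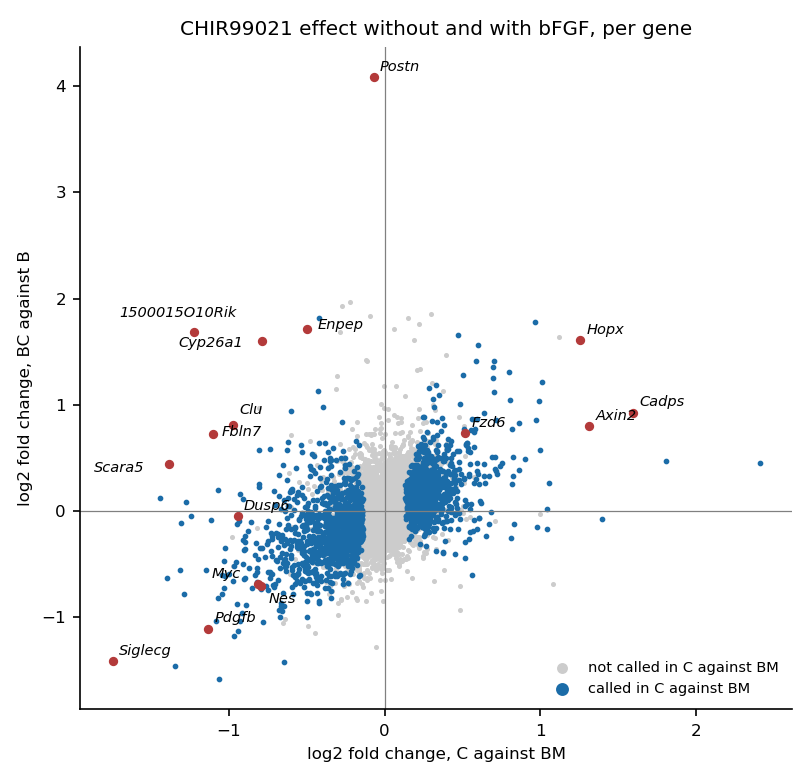
Log2 fold change of C against BM (horizontal axis) and of BC against B (vertical axis) for the 10761 genes tested in both, with genes called in C against BM in blue and 16 named genes in red. Axin2, Hopx and Cadps lie at the upper right, Siglecg, Pdgfb, Nes and Myc at the lower left, and Fbln7, Clu, Cyp26a1 and 1500015O10Rik at the upper left, where the sign differs.

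A direct test of whether the CHIR99021 effect differed with bFGF found 78 of 11272 genes (0.692%), 63 with a higher (0.559%) and 15 with a lower (0.133%) effect when bFGF was present. Fbln7, a fibulin of the extracellular matrix, fell without bFGF, from 4.96, 30.6, 22.3 and 22.4 FPKM in BM to 1.47, 18.4, 10.3 and 9.59 FPKM in C. With bFGF it was at 0.23, 5.14, 4.51 and 1.99 FPKM in B and at 0.20, 7.68, 5.95 and 3.98 FPKM in BC, and the 2 effects differed by 1.87 ± 0.18 SE on the log2 scale (adjusted p = 0.000904). Postn, periostin, did not pass without bFGF (log2 fold change -0.07 ± 0.11 SE, adjusted p = 0.706), and with it went from 0.05, 0.21, 1.22 and 0.66 FPKM in B to 0.07, 6.61, 19.3 and 9.54 FPKM in BC, the strongest difference of effects by p (4.19 ± 0.30 SE, adjusted p = 6.67e-05).

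Dusp6 showed the fall without bFGF given above, and with bFGF was at 33.6, 63.0, 18 and 21.5 FPKM in B and at 25.8, 58.6, 23.5 and 20.4 FPKM in BC, so that its effects differed by 0.89 ± 0.16 SE (adjusted p = 0.029). For Cx3cl1 the effects differed by 1.39 ± 0.21 SE (adjusted p = 0.0203). Enpep, Nrep and Cyp26a1, which breaks down retinoic acid, also had a higher effect with bFGF (differences of 2.25, 1.72 and 2.41). Fgfr3 and Prkca, which rose without bFGF, had a lower effect with it (-1.76, adjusted p = 0.0416, and -0.76, adjusted p = 0.0416). Fgfr3 was low with bFGF, at 0.22 to 0.59 FPKM in B and 0.13 to 0.53 FPKM in BC. It was too low to be tested in BC against B, so its difference of effects is uncertain. For Axin2 the difference of effects was -0.51 ± 0.13 SE and did not pass (adjusted p = 0.103). The count of 78 was 593 without the day 1 libraries and 3, 1 and 1 without those of day 3, 5 or 7, and limma on log2(FPKM + 1) gave 1.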

How the data were processed

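Poly-A RNA of mNRPCs was sequenced by the authors on the BGISEQ-500 platform, 1 library per treatment and day. The authors mapped the reads with Bowtie 2. The paper names eXpress for quantification and the submitters' processing notes name RSEM and mm10, with versions not given in the sources used here. For every gene listed, the authors deposited an expected count, which splits shared reads and so may be a fraction (63.9% to 66.6% of the values were whole), and an FPKM value, which is scaled by transcript length and library total. Genes were listed from an FPKM of 0.01, and an unlisted gene was read as 0. How reads shared by near-identical or overlapping genes were divided follows the authors' program, so values of such genes are less certain.

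Expected counts were rounded and tested with edgeR 4.0.16 (R 4.3.3, TMM, glmQLFit and glmQLFTest). P-values were adjusted by Benjamini and Hochberg across every gene whose FPKM averaged 1 or more, and 0.05 was the threshold. The model held the day and CHIR99021, and with bFGF also day by bFGF and the interaction. SE is the log2 fold change divided by the root of F. Paired differences used log2(FPKM + 1), which understates the change of low genes. Pairs share the day by their labels, and libraries of 1 day deviated together from the group means (r = 0.87 to 0.97 across genes). The edgeR biological coefficient of variation was 6.0%. The fits were also run on simulated counts with known changes. Those counts held no differences between days, so they cannot show how the paired fit behaves on these data. Alternatives used DESeq2 1.42.0, limma 3.58.1, other scalings, filters and pseudocounts, and each pair left out.

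Named genes were the tested Wnt feedback genes, the 10 largest rises and 10 largest falls that passed, moved the same way in all 4 pairs and had at least 10 counts in each library, up to 5 with fewer counts, up to 5 by the interaction, the 30 genes past 1.5-fold in all pairs, and members of other lists that passed. The members and lists were chosen with earlier results of these data known, and 4 lists (lens, contractile, YAP/TAZ, Notch) and the day 1 test after the values were seen. Expected counts carry counting error only, and the day 0 library was not used here. Values of some genes are not reported here.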

Additional observations from a re-analysis of the deposited data

Results flagged for a closer look

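Several named genes had 1 pair far from the other 3. On the log2(FPKM + 1) scale the day 1 difference stood apart for Notum (0.02), BC034090 (0.02), Sbspon (0.22) and Fam101a (0.19), each with a larger rise on the 3 later days. For Fhdc1, a formin, the day 7 difference (-1.01) stood apart from a fall of 0.60 to 0.64 on the other days. Chance gives such a gap in about 1 of 20 groups of independent, normally spread values. These 5 came from 60 named genes that were chosen by the same differences and share the same libraries, so that rate may not hold for them. The log2(FPKM + 1) scale also understates changes of low genes, and Sbspon had 14 expected counts in BM and 25 in C on day 1.

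The difference between C and BM on day 1 differed from that of days 3 to 7, by a contrast chosen after the values were seen and resting on the single day 1 pair, for Thrsp (-3.49), BC034090 (-2.03), Notum (-1.96), Lrtm1 (-1.84), Apcdd1 (-0.75), Crebrf (-0.75) and Ubald1 (-0.67), with lower values on day 1, and for Scara5 (1.15), Adamts5 (0.77) and Dkk2 (0.47), with higher ones. Thrsp, BC034090, Notum, Lrtm1 and Apcdd1 rose more on the later days, Crebrf and Ubald1 fell most on day 1, and the last 3 fell most after it.

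The CHIR99021 effect with bFGF minus that without it was above 0 on the log2 scale for Postn (4.19), 1500015O10Rik (2.94), Cyp26a1 (2.41), Enpep (2.25), Fbln7 (1.87), Scara5 (1.86), Nrep (1.72), Notch3 (1.58), Cx3cl1 (1.39), Cdo1 (1.30), Adamts5 (1.2), Dusp6 (0.89) and Prss23 (0.68), and below 0 for Fgfr3 (-1.76, at most 0.59 FPKM in the B and BC libraries), each at an adjusted p under 0.05 by edgeR. Of these, 1500015O10Rik, Fbln7, Enpep and Cyp26a1 fell without bFGF and rose with it, with log2 fold changes of 1.69, 0.73, 1.71 and 1.60 in BC against B.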

How the results depend on the processing

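The count of 2292 genes was 2302 with DESeq2 size factors, 2316 with library totals, 2188 without a filter, 1989 at a mean FPKM of at least 5, 1636 with DESeq2, and 1857 and 1832 with limma on log2(FPKM + 1) and log2(FPKM + 0.1). It was 823 with all 16 libraries in 1 fit. Without 1 pair it ran from 987 to 3067. Without the replicate block of the day edgeR gave 0, with 293 genes at an unadjusted p under 0.05, and BC against B also gave 0 without the replicate block, with 87 such genes. DESeq2 and limma were run only with the block. None of the 185 named genes that passed changed direction under any of the 13 alternatives that gave it a value. The call was kept by 154 of 185 with DESeq2, 112 to 176 with 1 pair left out, 100 of 180 with 16 libraries and 0 without the block.

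The interaction count of 78 was 224 without a filter, 45 at a mean FPKM of at least 5, 242 with DESeq2, 1 and 0 with the 2 limma fits, and 1 to 593 without 1 pair, with 1489 genes at an unadjusted p under 0.05 in the limma fit that gave 0. BC against B gave 834 with DESeq2 and 9 to 950 without 1 pair. The day 1 test gave 101 with DESeq2. The 30 genes past 1.5-fold became 65 with a pseudocount of 0.1, 47 with TMM-scaled CPM, and 35 to 130 without 1 pair, and the 4401 genes of 1 direction 5188 to 6310.

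A leave-one-out fit has 2 residual degrees of freedom.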
